A study of Mus musculus with 8 samples.

Results

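The venous endothelial cells of the mouse lung are described here, in 4 mice exposed to cigarette smoke (CS) and 4 mice kept in room air (RA). Members were the cells that the authors labelled as venous endothelium, and they numbered 1665 of the 41106 cells deposited. All mice were Sftpc-CreERT2-mTmG animals of the C57BL/6 strain that received tamoxifen as young adults, so that Cre driven by the Sftpc promoter of alveolar type II cells switched those cells from the red reporter tdTomato to the green reporter eGFP. CS mice were exposed for 6 hours a day on 5 days a week over 10 months, and RA mice were kept in air for the same 10 months. Each group held 2 male and 2 female mice according to the labels. Lungs were dissociated, CD45-positive and CD45-negative cells were separated and mixed again at a set ratio, and droplet libraries of the 3' ends of transcripts were sequenced in 4 lanes, with 1 CS and 1 RA mouse in each. Venous cells numbered 161, 259, 268 and 188 in CS mice 1 to 4 and 318, 187, 198 and 86 in RA mice 1 to 4. Values below are given in this order of mice unless stated otherwise.

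Venous endothelium lines the vessels that collect oxygenated blood from the lung capillaries and return it to the left heart. Across organs, venules are the vessels through which leukocytes leave the blood, and their endothelium stores von Willebrand factor (Vwf) and P-selectin (Selp) in granules for rapid release. The transcription factor COUP-TFII (Nr2f2) is known to maintain venous identity against the arterial programme. Endothelium of the lung also clears noradrenaline from the circulation, and Slc6a2 encodes the transporter that takes it up.

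The 8 libraries did not all carry the sex given in the labels. Among venous cells, Xist, the transcript that silences an X chromosome in females, was at 10.4 and 10.5 transcripts per 10,000 in the CS mice labelled male (CS mice 1 and 2) and at 0.127 and 0.0468 in those labelled female (CS mice 3 and 4). The Y-linked Ddx3y was at 0.0111 and 0.00127 in the former and at 1.202 and 1.25 in the latter. Thus 4 CS libraries went against their sex label and 0 RA libraries did. Median transcripts per venous cell were 6515, 5540, 5245 and 5518 in CS mice and 3257, 4837, 5940 and 6803 in RA mice, and RA mouse 1 lay lowest (exact two-sided permutation test of the group means, p = 0.629). Between 748411 and 1734130 venous transcripts were counted per mouse, and 12 venous cells carried a barcode that was also seen in another library. The reporter eGFP was at 4.14 to 6.64 in CS and 3.20 to 5.42 in RA venous cells, tdTomato at 1.15 to 2.44 and 2.29 to 2.93, and Sftpc itself at 0.0339 to 1.85 and 0.0459 to 2.21. In venous cells of every mouse eGFP exceeded tdTomato, although the switch to eGFP was designed for alveolar type II cells. The reason was not tested.

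Venous markers set these cells apart from the other endothelial types. Levels are means over mice of transcripts per 10,000 and are a description without a test, since the authors drew the types from clusters of the same genes. Slc6a2 was at 15.9 in venous cells, against 0.0344 in arterial cells, 0.0900 in general capillary (gCap) cells, 0.0352 in aerocytes and 0.0275 in lymphatic endothelial cells. Its highest level in any other type was 0.437, in the few cells labelled as erythrocytes. An Slc6a2 transcript was found in 89.5% of venous cells (median depth 5123 transcripts) and in 0.650% of B cells (median depth 4055), which serve as a type without the transporter.

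Vwf separated venous cells less sharply, as the other large vessels also carried it. It was at 45.2 in venous and 31.5 in arterial cells, and at 5.44 in gCap cells. Of 14 venous markers listed, 10 were highest in venous cells among all 32 types. Some margins were narrow. Lrg1 was at 8.14 against 8.10 in alveolar type II cells and Ephb4 at 2.50 against 2.06 in gCap cells. Hdac9 was at 8.60 against 7.70 in type 1 conventional dendritic cells. Those not highest in venous cells were Nr2f2, Car8, Bst1 and Ptgs1. Nr2f2 was at 3.92 in venous and 10.5 in lymphatic cells, and venous cells ranked 7 for it. Car8 and Bst1 were higher in neuroendocrine cells and alveolar macrophages, and Ptgs1 was higher in mesothelium. Ackr1, an atypical chemokine receptor known from postcapillary venules, was detected only sparsely, at 0.332, and was the single venous marker under 1 per 10,000.

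**Figure D1:**
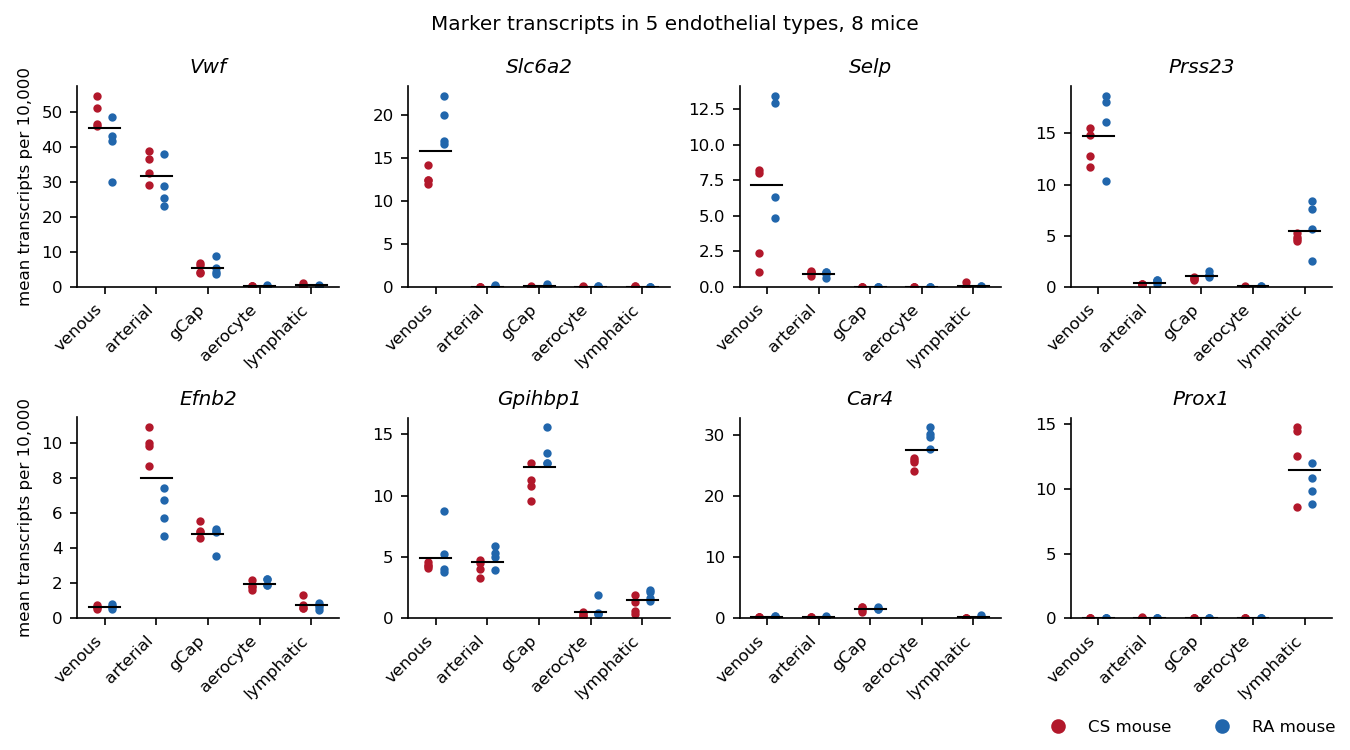
Mean transcripts per 10,000 of 8 marker genes (vertical axes) in 5 endothelial types (horizontal axes). Each point is 1 mouse, red for CS and blue for RA, and the black bar is the mean over mice. Slc6a2 and Selp stood in venous cells, Vwf in venous and arterial cells, Efnb2 was highest in arterial cells, Gpihbp1 in gCap cells, Car4 in aerocytes and Prox1 in lymphatic cells.

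Markers of the other vessels were in part shared by venous cells. Of 10 arterial markers 4 reached 1 per 10,000 (Mgp, Cxcl12, Fbln5 and Sox17) and 2 were below 0.1, the gap junction gene Gja5 at 0.0197 and Dkk2 at 0.0308. Of 7 gCap markers 4 reached 1 and 0 were below 0.1, with Plvap, which forms the diaphragms of endothelial pores, at 7.69 and Gpihbp1 at 4.92. Of 6 aerocyte markers 4 were below 0.1, as were 5 of 7 lymphatic markers, among them the lymphatic master regulator Prox1 at 0.0219. The calcification inhibitor Mgp was at 7.73 in venous and 47.5 in arterial cells, and Lyve1, a hyaluronan receptor listed as lymphatic, was at 11.8 in venous, 13.9 in arterial and 5.41 in lymphatic cells. The gCap-listed genes Sema3c and Cd36 were at 10.3 and 10.7. Of 10 pan-endothelial genes, 9 reached at least 1 per 10,000.

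Most markers of cells outside the vessel lining were low in venous cells, and those of secretory epithelium and red cells reached the highest sums. Smooth muscle and pericyte markers summed to 0.474 to 0.598 in CS and 0.336 to 1.04 in RA mice over 8 genes, and fibroblast markers to 0.0763 to 0.366 and 0.0910 to 0.197 over 6 genes. Of 8 genes of the cardiac muscle that sheathes the pulmonary veins of mice, 7 were below 0.1, of which 1 was at 0 in every mouse. The eighth, the myosin light chain gene Myl4, was at 0.262, was found in 13.4% of venous cells and was highest in them among the 32 types, with lymphatic cells next at 0.243. Immune markers were below 0.1 for 7 of 8 genes, with 1 at 0 in every mouse, and summed to 0.258 to 0.549 in CS and 0.115 to 1.79 in RA mice. Red cell markers summed to 1.05 to 3.07 in CS and 0.0963 to 1.71 in RA mice over 4 genes. Epithelial markers summed to 5.93 to 25.7 and 0.234 to 26.6 over 6 genes, of which the abundant club cell transcript Scgb1a1 made up most. In these 6 lists 6 genes were detected often enough to be tested between CS and RA mice, and 0 were called. The haemoglobin gene Hbb-bs had a log2 difference of 0.62 (unadjusted p = 0.0088, limma adjusted p = 0.196). Whether free RNA or epithelial transcripts had any part in the differences below was not tested.

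Of 2103 genes at 1 or more per 10,000 in venous cells, 418 were highest there among the 5 endothelial types and 55 were at least 2-fold above every other endothelial type. Those named here are given beside the next highest endothelial type. Among the 55 were Ptgs2, Ptgis and Pla2g4a, which act in prostanoid synthesis. Ptgs2, the inducible cyclooxygenase, was at 5.16 in venous and 0.578 in arterial cells, and Ptgis, the prostacyclin synthase, was at 2.38 and 0.391. Pla2g4a, a phospholipase that releases arachidonic acid, was at 1.33 and 0.357. Also among them was Vegfc, a lymphatic and vascular growth factor, at 8.56 in venous and 1.63 in arterial cells, and Ackr3, a scavenging chemokine receptor, at 4.93 in venous and 0.930 in lymphatic cells. Selp was at 7.16 in venous and 0.946 in arterial cells, and Ch25h, which makes an oxysterol from cholesterol, was at 3.55 in venous and 0.504 in lymphatic cells. The chloride channel gene Ano2 was at 5.54 in venous and 1.52 in arterial cells. Over all 32 types, 124 of the 2103 genes were highest in venous cells.

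The genes whose levels followed Slc6a2 most closely over the 32 types were Lhx6 (Pearson r = 0.999), Gm45463 (0.989), Ackr1 (0.975), Tmem252 (0.949) and Gm9930 (0.942). Lhx6, a homeobox transcription factor gene, was at 0.647 in venous cells and at most 0.0625 elsewhere. Vwf was followed most closely by Nos3 (0.963), the endothelial nitric oxide synthase, and by Samd5 (0.955), Jam2 (0.946), Myrip (0.942) and Ptprr (0.941). Each r describes type means drawn from the same libraries. For Slc6a2 it is set by the venous value alone, since every other type was at 0.437 or less, and a gene near 0 outside venous cells has a high r.

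Venous cells were split by whether an Slc6a2 transcript was found. After each cell was thinned to 2000 transcripts, which left out 87 shallower cells, 1224 cells had an Slc6a2 transcript and 354 had none. Cells without one made up 26.8% ± 4.03 of venous cells of CS mice and 17.5% ± 7.49 of those of RA mice (n = 4 per group, SD), with ranges of 21.2 to 30.7% and 9.03 to 25.1% that overlapped. Without thinning CS mice had 12.001% ± 3.72 and RA mice 8.93% ± 5.29 such cells (n = 4, SD). Cells without a transcript were not shallower before thinning, with a median of 6449 transcripts against 4996. Since thinning raised these shares, many cells without a transcript after it had one before, and the number of zeros that sampling alone gives was not computed. Comparing the sets is a description, since the same cells defined them.

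Cells without Slc6a2 held more Selp, Mgp and Fabp4 than cells with it. Of 2313 genes compared, 24 were at least 2-fold higher without Slc6a2 and higher in 8 of 8 mice, and 3 were at least 2-fold higher with it in 8 of 8 mice. Without and with Slc6a2, the fatty acid carrier Fabp4 was at 10.9 and 1.75, Mgp at 19.7 and 4.32, and apolipoprotein E (Apoe) at 4.97 and 0.906. Prkg1, the kinase through which cyclic GMP acts, was at 4.35 and 0.651. Among adhesion genes, Selp was at 17.3 and 4.84 and was higher without Slc6a2 in 8 of 8 mice, whereas E-selectin (Sele), at 3.26 and 0.447, was higher in 7 of 8. The gap for Selp was small in CS mouse 1 (1.21 against 1.14) and CS mouse 2 (2.25 against 1.94). It was widest in RA mouse 4 (50.9 against 7), where 11 cells had no Slc6a2 transcript. Olfr1033, an olfactory receptor gene that reappears below, was at 2.42 without and 0.437 with Slc6a2 and was higher without in 6 of 8 mice.

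Genes that stood higher in cells with Slc6a2 were fewer. Dnm3, a dynamin, was at 7.04 with and 2.59 without, and Rarb, a retinoic acid receptor, was at 2.82 and 1.03. Epb41 was at 5.61 and 2.51. The serine protease gene Prss23, at 16.1 and 8.73, was less than 2-fold apart. All of them were higher with Slc6a2 in 8 of 8 mice.

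**Figure D2:**
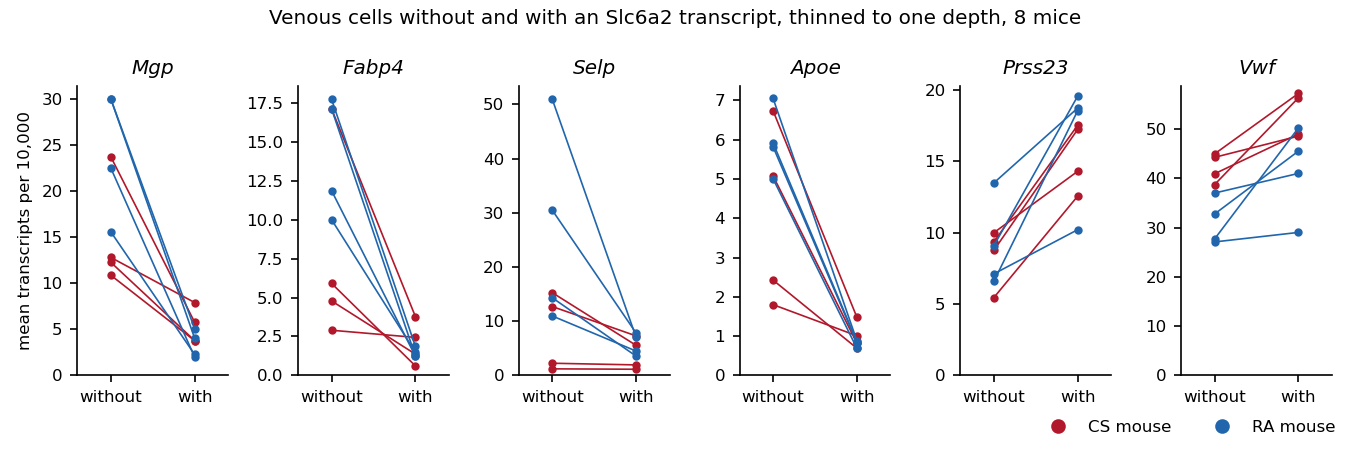
Mean transcripts per 10,000 (vertical axes) of 6 genes in venous cells without and with an Slc6a2 transcript after thinning to one depth. Each line joins the values of 1 mouse, red for CS and blue for RA. Mgp, Fabp4, Selp and Apoe were higher without Slc6a2 in each mouse, and Prss23 and Vwf were higher with it in each mouse.

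The share of venous cells in the lung did not pass the test between the groups. They made up 7.12, 6.60, 5.98 and 4.25% of the cells of CD45-negative types in CS mice and 5.73, 3.71, 5.46 and 5.40% in RA mice, and the groups overlapped. The means were 5.99% ± 1.25 for CS and 5.07% ± 0.922 for RA mice (n = 4 per group, SD). The difference of 0.917 percentage points had p = 0.257 in an exact two-sided permutation test. With 70 ways to assign 8 mice to the groups, its smallest p is 0.0286. CS exceeded RA in 3 of 4 lanes, by 1.39, 2.27 and 1.14 percentage points, and was lower by 1.14 in the lane of CS and RA mice 4. Among blood endothelial cells the venous share was 10.9% ± 3.47 for CS and 10.3% ± 2.31 for RA mice (n = 4 per group, SD, p = 0.771 by exact permutation), and the sign of this difference turned without CS mouse 2 (-0.678) and without RA mouse 2 (-0.383). A p above the threshold with 4 mice a group does not show that the shares were equal.

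The comparison of CS with RA mice asked which genes of the venous wall differed after long exposure. Values of a mouse were means over its venous cells, the 7706 genes found in at least 10% of venous cells of either group were tested with limma on log2(mean + 1), and p was adjusted by the Benjamini-Hochberg method over all of them. The test called 10 genes (0.13% of those tested), 5 higher in CS (0.0649%) and 5 lower (0.0649%). At an unadjusted p below 0.05 there were 1176 genes (15.3%), of which 765 were higher in CS (9.93%) and 411 lower (5.33%). CS and RA mice did not overlap in 725 genes (9.41%). All 10 called genes were among them. The median log2 difference over all genes was 0.02.

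A pair of genes for protein folding in the endoplasmic reticulum (ER) fell in CS mice. Calr, or calreticulin, is a calcium-binding chaperone of newly made glycoproteins and lies on chromosome 8 of GRCm38.p6 (84841850 to 84846934, minus strand). It was at 2.18, 3.09, 3.21 and 2.55 transcripts per 10,000 in CS mice and at 4.82, 5.83, 4.93 and 5.97 in RA mice. Every CS mouse lay below every RA mouse. The means were 2.76 ± 0.482 and 5.39 ± 0.594 (SD, n = 4 each), and the log2 difference was -0.77 (SE 0.13, limma adjusted p = 0.0432). Pdia6, a protein disulfide isomerase, lies on chromosome 12 (17266545 to 17284770, plus strand) and overlaps Atp6v1c2 on the opposite strand. It was at 1.23, 1.27, 1.43 and 0.947 in CS mice and at 1.94, 2.75, 2.64 and 2.59 in RA mice. Its log2 difference was -0.65 (SE 0.10, limma adjusted p = 0.0432), again without overlap. With the sequencing lane as a term, which pairs 1 CS with 1 RA mouse, neither gene passed the test (limma adjusted p = 0.0833 for each).

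The other listed chaperones had differences of the same sign. Of 22 listed genes of heat shock and ER folding, 22 were tested and 22 had a log2 difference below 0, where 43.5% of all genes did. This list and those below were chosen with earlier results of these data known, so such counts describe and do not test. The median of the list was -0.30 and that of all genes 0.02. Of the 22, 2 passed the test (Calr and Pdia6), 14 had an unadjusted p below 0.05, all lower, and 7 did not overlap. Of all genes tested 0.13% passed, 5.33% were lower at that unadjusted p and 9.41% did not overlap. Without CS mouse 1 or without RA mouse 4, 17 of the 22 were below 0. With 0.1 in place of 1 added to the mean, the list median was -0.51 and 21 of the 22 were below 0.

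Hspa5, or BiP, the main ER chaperone and sensor of unfolded protein, was at 4.17, 6.01, 4.65 and 3.95 in CS mice and at 8.83, 8.92, 6.63 and 6.52 in RA mice (log2 difference -0.62, limma adjusted p = 0.117). The groups did not overlap. Hsp90b1, the ER form of HSP90, had a difference of -0.42 and Sdf2l1, a partner of BiP, one of -0.19 (limma adjusted p = 0.175 and 0.0958). Among cytosolic chaperones, Hspb1 had the largest difference, at -1.27, with 1.67, 6.54, 4.96 and 3.87 in CS mice and 12.05, 6.13, 11.6 and 16.1 in RA mice, which overlapped (limma adjusted p = 0.113). The constitutive Hspa8 and Hsp90ab1 had differences of -0.55 and -0.54 (limma adjusted p = 0.111 and 0.180), and the inducible Hspa1a one of -0.66 with wide spread, from 3.46 to 17.4 in CS and 6.32 to 31.1 in RA mice (limma adjusted p = 0.523). Calnexin (Canx), the membrane-bound relative of calreticulin, was at 1.87 and 1.95, a difference of -0.03.

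The promoters of these genes are shown because the ER stress element, through which unfolded-protein signalling is known to act on chaperone genes, can be looked for in them. The letters searched were CCAAT and CCACG with 9 free letters (N) between them, on both strands of RefSeq promoter windows of GRCm38.p6 from 250 bases before to 50 after each start. They were found in windows of 37 of 27025 genes (0.137%). Of the 22 chaperone genes 18 had a window, and 5 of these held the letters: Calr, Canx, Hsp90b1, Hspa5 and Pdia6. Of the 10 called genes 8 had a window, and Calr and Pdia6 held them. The window up to the annotated gene follows for Calr (chr8:84846935-84847181, minus strand) and Pdia6 (chr12:17266339-17266544, plus strand), written 5′ to 3′ along the gene with the match in capitals. For Hspa5 only the match is shown (chr2:34772025-34772043, plus strand). Counted from the RefSeq start, the match begins at -162 in Calr, where it lies on the opposite strand, at -98 in Pdia6 and at -65 in Hspa5.
Calr: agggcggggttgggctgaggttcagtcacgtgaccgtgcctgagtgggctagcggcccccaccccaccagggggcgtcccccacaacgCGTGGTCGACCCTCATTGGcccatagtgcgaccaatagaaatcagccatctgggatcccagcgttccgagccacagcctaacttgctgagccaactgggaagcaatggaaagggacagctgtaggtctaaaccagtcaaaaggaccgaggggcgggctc
Pdia6: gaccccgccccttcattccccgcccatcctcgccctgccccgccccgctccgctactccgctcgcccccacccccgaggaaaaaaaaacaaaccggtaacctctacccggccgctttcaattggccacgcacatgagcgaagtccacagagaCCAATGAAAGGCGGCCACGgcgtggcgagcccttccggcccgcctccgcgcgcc
Hspa5: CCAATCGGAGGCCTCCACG
Canx held the letters and had a difference near 0, and Ddit4, described next, did not hold them. A match describes the sequence and was not tested as a site in these cells.

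Ddit4, an inhibitor of the mTORC1 growth pathway that many stresses induce, also fell. It was at 0.489, 0.508, 0.479 and 0.575 in CS mice and at 1.08, 0.987, 1.11 and 1.01 in RA mice, so that the spread within each group was small beside the gap. The log2 difference was -0.44 (SE 0.06, limma adjusted p = 0.0318). Ddit4 lies on chromosome 10 (59949669 to 59951834, minus strand).

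The lowest p belonged to 9030624G23Rik, a protein-coding gene on chromosome 12 (24043202 to 24097246, minus strand). It fell from 0.935, 1.08, 0.727 and 1.03 in RA mice to 0.180, 0.214, 0.267 and 0.293 in CS mice, a log2 difference of -0.65 (SE 0.07, limma adjusted p = 0.00443). Olfr1033 on chromosome 2 (86020633 to 86045171, plus strand), a member of the olfactory receptor family, was at 0.213, 0.315, 0.366 and 0.512 in CS mice and at 1.06, 2.12, 0.982 and 1.3996 in RA mice. The largest fall on the log2 scale among called genes was that of Olfr1033, at -0.80 (SE 0.13, limma adjusted p = 0.0432). A transcript of it was found in 15.98% of venous cells of CS mice and 21.2% of those of RA mice. Sharing of reads between members of this large receptor family was not tested.

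Among the genes that rose, Tmtc2 was the one of highest level. It encodes a protein of the ER membrane and lies on chromosome 10 (105187663 to 105574451, minus strand). CS mice held 20.2, 20.6, 17.6 and 16.8 transcripts per 10,000 and RA mice 10.0, 9.86, 10.4 and 10.2, so that the RA mice lay close together and the CS mice well above them. The means were 18.8 ± 1.88 and 10.1 ± 0.214 (SD, n = 4 each), with a log2 difference of 0.83 (SE 0.13, limma adjusted p = 0.0432).

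Nr3c2, the mineralocorticoid receptor, which binds aldosterone and also glucocorticoids, rose on chromosome 8 (76899442 to 77245012, plus strand). It was at 2.81, 2.75, 3.47 and 3.14 in CS mice and at 1.19, 1.602, 1.85 and 1.75 in RA mice, with a log2 difference of 0.64 (SE 0.11, limma adjusted p = 0.0452). Gna14, an alpha subunit of G proteins of the Gq family, was at 1.41, 1.03, 1.05 and 1.10 in CS mice and at 0.292, 0.339, 0.377 and 0.718 in RA mice, a log2 difference of 0.59 (SE 0.09, limma adjusted p = 0.0432). RA mouse 4 stood above the other RA mice and still below every CS mouse. The 2 remaining genes are annotated as processed transcripts. 2610307P16Rik was at 1.08 ± 0.116 in CS and 0.501 ± 0.119 in RA mice and Trerf1, a transcriptional regulator, at 0.772 ± 0.0519 and 0.317 ± 0.125 (SD, n = 4 each), with log2 differences of 0.47 and 0.43 and limma adjusted p values of 0.0432 and 0.0452.

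**Figure D3:**
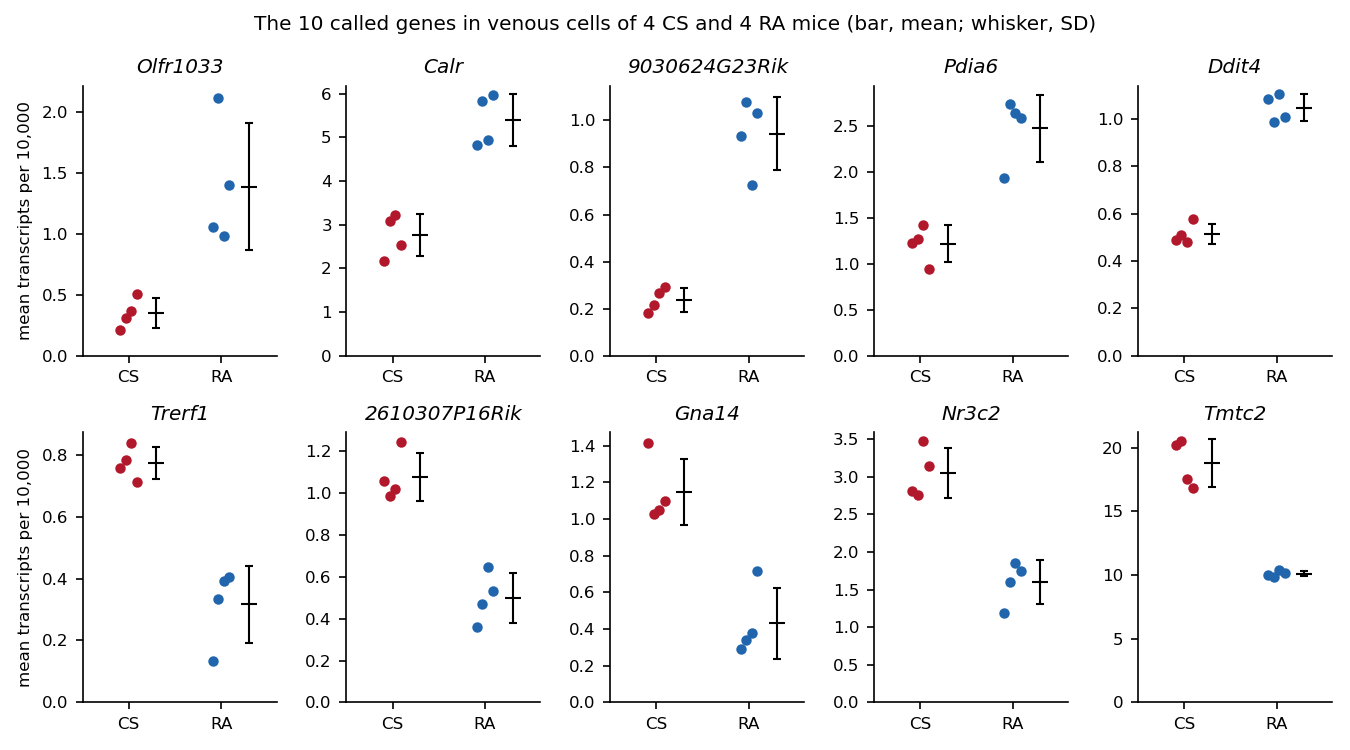
Mean transcripts per 10,000 in venous cells (vertical axes) of the 10 called genes in CS (red) and RA (blue) mice. Each point is 1 mouse, the bar beside the points is the mean and the whisker the SD (n = 4). The upper row holds the 5 genes lower in CS and the lower row the 5 genes higher in CS, and in no panel did the groups overlap.

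How many genes were called depended on the model. Each of the 10 kept its direction in every alternative that gave it a value, which was in part fixed in advance. Their groups did not overlap, so leaving out 1 mouse could not turn a difference. The lane, labelled sex and Xist terms were balanced over the groups and left the differences as they were. 9030624G23Rik was called in 17 of 18 alternatives, including 8 of 8 fits that left out 1 mouse. The other 9 were called in 3 to 8 alternatives and in at most 1 of the 8 fits without a mouse. The alternative on cells with a Vwf or Slc6a2 transcript called all 10 but nearly repeats the main fit. It kept 267 of 268 cells of CS mouse 3, 317 of 318 of RA mouse 1 and every cell of the other mice. With the labelled sex as a term 1 gene was called, 9030624G23Rik. As the CS libraries went against their sex labels, each labelled sex mixed libraries of high and of low Xist. That term therefore does not adjust for the sex that the transcripts show. With the lane as a term 2 were called, 9030624G23Rik (limma adjusted p = 0.0110) and Olfr1033 (0.033), while Tmtc2 had an adjusted p of 0.113 in limma and the other 7, Nr3c2 and Ddit4 among them, one of 0.0833. When a term for the Xist level of the library (above or below 1 per 10,000) was added, which was done after the mismatch with the sex labels was seen, 33 genes were called (0.428% of 7706), 14 higher (0.182%) and 19 lower (0.247%). The 10 genes were all among the 33.

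With the Xist term, P-selectin had the largest fall among the 33 called genes on the log2(mean + 1) scale, which understates the change of genes at low level. Selp was at 1.08, 2.37, 8.24 and 8.03 in CS mice and at 4.83, 6.34, 13.5 and 12.9 in RA mice. In each group the 2 libraries of high Xist (mice 1 and 2) held less Selp than the 2 of low Xist. Among the libraries of high Xist and among those of low Xist, every CS mouse lay below every RA mouse. The log2 difference was -0.97 in either fit. Its SE was 0.45 and its limma adjusted p 0.331 without the term, and 0.18 and 0.0354 with it. Tmem252, 1 of the 5 genes that followed Slc6a2 over cell types, was at 1.63, 1.37, 2.64 and 2.71 in CS and 3.38, 5.19, 4.41 and 4.29 in RA mice, and was called with the term only (log2 difference -0.80, limma adjusted p = 0.0260). The term also added Tsc22d3, a glucocorticoid-induced leucine zipper (limma adjusted p = 0.0190), the AP-1 subunit gene Jund (0.0354), the antiproliferative gene Btg2 (0.0403) and the cytokine signalling inhibitor Socs3 (0.0494) among the lower genes. Among the higher genes it added Esr1, the estrogen receptor alpha (log2 difference 0.31, limma adjusted p = 0.0190), Il15 (0.29, 0.0354), the DNA methyltransferase Dnmt3a (0.41, 0.0354), the sodium channel Scn7a (0.61, 0.0354) and the growth factor Pdgfd (0.74, 0.0403). Another of the 33 was Hsp25-ps1, a pseudogene of the small heat shock gene Hspb1, and how reads were split between them is uncertain.

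Venous identity genes did not pass the test without the Xist term, and Selp (-0.97) passed it with that term. Of the 14 venous markers 0 were called, 5 had a difference above 0 and 9 below, and the list median was -0.19. Slc6a2 was at 14.2, 12.4, 12.4 and 11.95 in CS mice and at 22.3, 16.9, 16.6 and 20.04 in RA mice. CS mice lay close together and below every RA mouse. The means were 12.7 ± 0.993 and 18.97 ± 2.68 (SD, n = 4 each), and the log2 difference was -0.53 (SE 0.15, unadjusted p = 0.00318, limma adjusted p = 0.150). Slc6a2 was the single marker of the 14 whose groups did not overlap, where 9.41% of all genes tested did not. Vwf was at 54.5, 51.1, 46.6 and 46.0 in CS mice and at 29.8, 41.6, 43.1 and 48.6 in RA mice, which overlapped (log2 difference 0.29, limma adjusted p = 0.428).

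Among the other markers, Lrg1, a leucine-rich glycoprotein of inflamed endothelium, was at 5.64, 3.83, 7.51 and 5.77 in CS mice and at 16.1, 7.12, 9.84 and 9.36 in RA mice (log2 difference -0.77, limma adjusted p = 0.169). Vcam1, an adhesion receptor for leukocytes, was at 3.68, 9.42, 16.3 and 21.5 in CS mice and at 9.94, 10.95, 18.6 and 16.3 in RA mice (-0.31, adjusted p = 0.748 from limma). Nr2f2 was at 3.95 in CS and 3.88 in RA mice on average, a difference of 0.07, and Ephb4, the venous ephrin receptor, had one of 0.10. Car8 (0.36), Ackr1 (0.17), Prss23 (-0.16), Hdac9 (-0.16), Amigo2 (-0.22), Ptgs1 (-0.23) and Bst1 (-0.24) lay within overlapping groups.

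Lists of genes through which endothelium handles blood cells and clotting held 0 called genes without the Xist term. Of 11 leukocyte adhesion genes tested, 5 were above 0 and 6 below, with a median of -0.01 and 0 called. Selp, described above, had the lowest difference of the list (-0.97) and was called with the Xist term. Icam1 was at 10.0, 17.8, 24.4 and 22.5 in CS mice and at 17.0, 23.7, 24.8 and 32.9 in RA mice (log2 difference -0.41, limma adjusted p = 0.484), and Pecam1 had a difference of 0.16. Of 10 genes of haemostasis, 3 were above 0 and 7 below, with a median of -0.07 and 0 called. Its members of highest level were Vwf and Thbd, the thrombin receptor thrombomodulin, at -0.21. S100a10 and Anxa2, which together bind plasminogen and its activator at the cell surface, had differences of -0.44 (unadjusted p = 0.048, limma adjusted p = 0.324) and -0.33 (limma adjusted p = 0.353). Of 6 complement regulators 0 were called, and clusterin (Clu) had a difference of -0.13.

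Genes of monoamines, prostanoids and vascular tone gave mixed signs. In the monoamine list 6 genes were tested and 0 called. Adrb1, the beta-1 adrenoceptor, was at 1.69, 1.502, 1.498 and 1.49 in CS mice and 0.908, 1.24, 0.971 and 1.10 in RA mice without overlap (log2 difference 0.31, limma adjusted p = 0.117). The breakdown enzyme Maoa had one of 0.26 with overlap. Among 6 prostanoid genes 0 were called. Hpgd, which inactivates prostaglandins, was at 23.5, 22.3, 17.4 and 15.6 in CS mice and 42.9, 24.2, 24.3 and 21.4 in RA mice (log2 difference -0.46, limma adjusted p = 0.345). The prostaglandin transporter Slco2a1 had a difference of 0.13, Ptgs2 one of -0.23 and Ptgis one of -0.03. Of 12 genes of nitric oxide, endothelin and angiotensin signalling 7 were above 0 and 0 were called. Calcrl and Ramp2, which together form the adrenomedullin receptor, had opposite signs, at 0.25 and -0.41, and Ramp2 did not overlap (14.7, 12.9, 14.3 and 12.4 against 23.03, 18.7, 16.01 and 16.2, limma adjusted p = 0.254). Npr3, the clearance receptor of natriuretic peptides, was at -0.37 (0.211).

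Genes of the immediate-early, Kruppel-like and glucocorticoid target lists were mostly below 0. Of 16 AP-1 and immediate-early genes 13 were below 0, with a median of -0.30 and 0 called without the Xist term. At an unadjusted p below 0.05 there were 7, all lower, against 5.33% of all genes tested. Without CS mouse 4 the number of list members at that p was 4. Jund was at 7.44, 6.76, 7.71 and 5.76 in CS mice and at 14.2, 11.8, 10.6 and 13.2 in RA mice (log2 difference -0.76, limma adjusted p = 0.0842). Atf3 was at 7.31, 9.32, 9.41 and 8.07 against 28.1, 13.6, 14.6 and 17.4 (-0.98, 0.0953). The groups did not overlap in either gene. Ier3 and Jun, the members of highest level, had differences of -0.72 and -0.37, and Junb one of -0.58.

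All 8 Kruppel-like factors tested lay below 0, with a median of -0.25 and 0 called. At an unadjusted p below 0.05 there were 4, against 5.33% of all genes tested that were lower at that p. The flow-responsive Klf2 was at 14.0, 11.5, 15.5 and 14.6 in CS mice and at 17.8, 20.7, 15.1 and 25.1 in RA mice (log2 difference -0.46, limma adjusted p = 0.254), and Klf4 had a difference of -0.32. Klf9 and Klf13, at -0.39 and -0.40, did not overlap. Without RA mouse 1, 6 of the 8 were below 0, and without CS mouse 2, RA mouse 2 or RA mouse 4 the number at an unadjusted p below 0.05 was 2.

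Of 8 glucocorticoid targets 7 were below 0, with a median of -0.36 and 0 called without the Xist term. At an unadjusted p below 0.05 there were 5, all lower, against 5.33% of all genes tested. Tsc22d3 was at 1.11, 0.934, 1.21 and 1.35 in CS mice and at 2.02, 1.76, 2.18 and 2.57 in RA mice without overlap (log2 difference -0.54, limma adjusted p = 0.0743). Of 10 genes of the p53 and stress list 7 were below 0, with a median of -0.35 that was -0.17 without RA mouse 1, and Ddit4 was called. With no filter on detection the median was -0.13 over 13 genes. The cell cycle inhibitor Cdkn1a, which both lists hold, was at 2.76, 5.45, 5.25 and 5.44 in CS mice and at 19.2, 10.2, 6.91 and 6.55 in RA mice (-0.95, adjusted p = 0.177 from limma). Btg2 had a difference of -0.71 and was called with the Xist term only.

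Genes driven by the circadian clock stood on the other side. All 8 clock output genes tested were above 0, with a median of 0.29 and 0 called. At an unadjusted p below 0.05 there were 6, all higher, against 9.93% of all genes tested. With 0.1 in place of 1 added to the mean, the list median was 0.88. Dbp, a classical output gene, was at 2.87, 1.94, 1.19 and 0.526 in CS mice and at 0.224, 0.270, 0.480 and 0.745 in RA mice, so that CS mouse 4 lay below RA mouse 4 (log2 difference 0.81, limma adjusted p = 0.155). Tef (0.36), Hlf (0.30), Nr1d1 (0.45) and Nr1d2 (0.26) had differences of the same sign. Of 4 genes of the opposite phase 3 were below 0. Arntl, or BMAL1, the core activator of the clock, was at 0.0597, 0.424, 0.373 and 0.377 in CS mice and at 1.204, 0.637, 0.831 and 0.498 in RA mice (-0.45, adjusted p = 0.144 from limma), and Clock had a difference of -0.06. The E-box letters CACGTG, through which the clock activators bind, were in the promoter windows of 4 of the 9 clock output genes that had one (Bhlhe41, Ciart, Per1 and Tef) and in those of 8.09% of all genes. Of these, Bhlhe41 was too rarely detected to be tested between the groups and Per1 had a difference of 0.06. Again, a match was not tested as a site in these cells.

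Lists of angiogenic, BMP and matrix genes held 0 called genes. Of 8 genes of VEGF, angiopoietin and apelin signalling 8 were above 0, with a median of 0.12. Without CS mouse 1, 5 of the 7 then tested were above 0 and the median was 0.07. Kdr, the VEGF receptor 2, was at 2.77, 2.60, 2.75 and 2.61 in CS mice and at 1.54, 1.91, 1.62 and 2.16 in RA mice without overlap (log2 difference 0.40, limma adjusted p = 0.111). The other receptor Flt1 and Ptprb, a phosphatase of endothelial receptors and 1 of the 2 junction genes of highest level, had differences of 0.10 and 0.25. Of 15 BMP and TGF-beta genes 9 were above 0 and 6 below, where 43.5% of all genes were below. At an unadjusted p below 0.05, 4 were higher and 1 lower, against 9.93% and 5.33% of all genes tested. Bmp6 was at 5.21, 5.07, 5.03 and 7.32 in CS mice and at 4.19, 3.11, 3.76 and 3.46 in RA mice (0.52, adjusted p = 0.142 from limma), and the receptor Bmpr2 had a difference of 0.30. Id1, a target of BMP signalling, had one of -0.35, and the co-receptor Eng one of -0.16.

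In the matrix list 12 of 16 genes were above 0, where 43.5% of all genes were below 0. At an unadjusted p below 0.05 there were 3, all higher, against 9.93% of all genes tested. Sparc, a matricellular glycoprotein, was at 1.42, 1.27, 1.38 and 1.16 in CS mice and at 0.570, 0.971, 0.913 and 0.926 in RA mice (log2 difference 0.33, limma adjusted p = 0.139). The proteoglycan biglycan (Bgn) was at 0.66 on the same scale with overlap, and Mgp and elastin (Eln) at 0.18 and 0.14. Of 11 semaphorin and guidance genes 4 had an unadjusted p below 0.05, all higher, against the same 9.93% of all genes. Among them were Sema6d (0.60, limma adjusted p = 0.156) and Sema6a (0.35). Sema3c, which the list also holds, had a difference of 0.20.

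Ion channels and the aryl hydrocarbon receptor, which combustion products activate, held 0 called genes without the Xist term. Piezo2, a stretch-activated channel, was at 4.36, 3.67, 2.82 and 3.21 in CS mice and at 0.833, 1.95, 2.11 and 2.15 in RA mice without overlap (log2 difference 0.73, limma adjusted p = 0.107). Its relative Piezo1 had a difference of the opposite sign, -0.24. Aqp1, a water channel, had one of -0.13, and Scn7a one of 0.61 (limma adjusted p = 0.0953). Ahr was at 1.89, 1.21, 1.74 and 1.47 in CS mice and at 0.752, 0.919, 0.918 and 1.08 in RA mice without overlap (log2 difference 0.42, limma adjusted p = 0.101). Its classical target Cyp1a1 was at 2.09, 1.80, 2.14 and 2.22 in CS mice and at 3.74, 1.28, 4.50 and 3.18 in RA mice (-0.37, adjusted p = 0.431 from limma), and the target Tiparp was at -0.34.

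Remaining lists held 0 called genes. Of 13 antioxidant genes 10 were below 0, where 43.5% of all genes were. At an unadjusted p below 0.05, 1 was higher and 2 lower, against 9.93% and 5.33% of all genes tested. The ferritin chains Fth1 and Ftl1 were at -0.21 and -0.39 and Sod1, superoxide dismutase, at 0.27. All 7 genes of MHC class II were above 0, with a median of 0.31 and 0 at an unadjusted p below 0.05. Cd74, the invariant chain, was at 3.40, 5.88, 14.6 and 14.6 in CS mice and at 0.817, 9.90, 13.4 and 5.65 in RA mice, and H2-Aa had a difference of 0.32. Without RA mouse 1 both differences turned, to -0.13 and -0.02, 4 of the 7 genes were above 0 and the list median was 0.02. Without CS mouse 3 or CS mouse 4 the median was 0.16, and without RA mouse 3 it was 0.47. The class I genes H2-K1 and H2-D1 had differences of 0.07 and -0.28, and the interferon-stimulated Irf1 one of -0.15, while Ifitm3 was at 24.99 in CS and 25.2 in RA mice. Nfkbia, the feedback inhibitor of NF-kB, was at 7.2996, 11.1, 15.2 and 12.8 in CS mice and at 18.1, 15.9, 18.3 and 20.2 in RA mice without overlap (log2 difference -0.64, limma adjusted p = 0.179). In the lists of chemokines, identity factors, lipid uptake and zinc transport, the members of highest level lay within overlapping groups. These were Cxcl12 (0.19), Ackr3 (0.08), Vegfc (0.01), Emcn (0.32), Cd36 (-0.01), Gpihbp1 (-0.22), Slc30a1 (0.09) and Slc39a10 (-0.06), together with the tight junction gene Cldn5 (-0.41). None of the 6 proliferation genes passed the filter on detection.

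**Figure D4:**
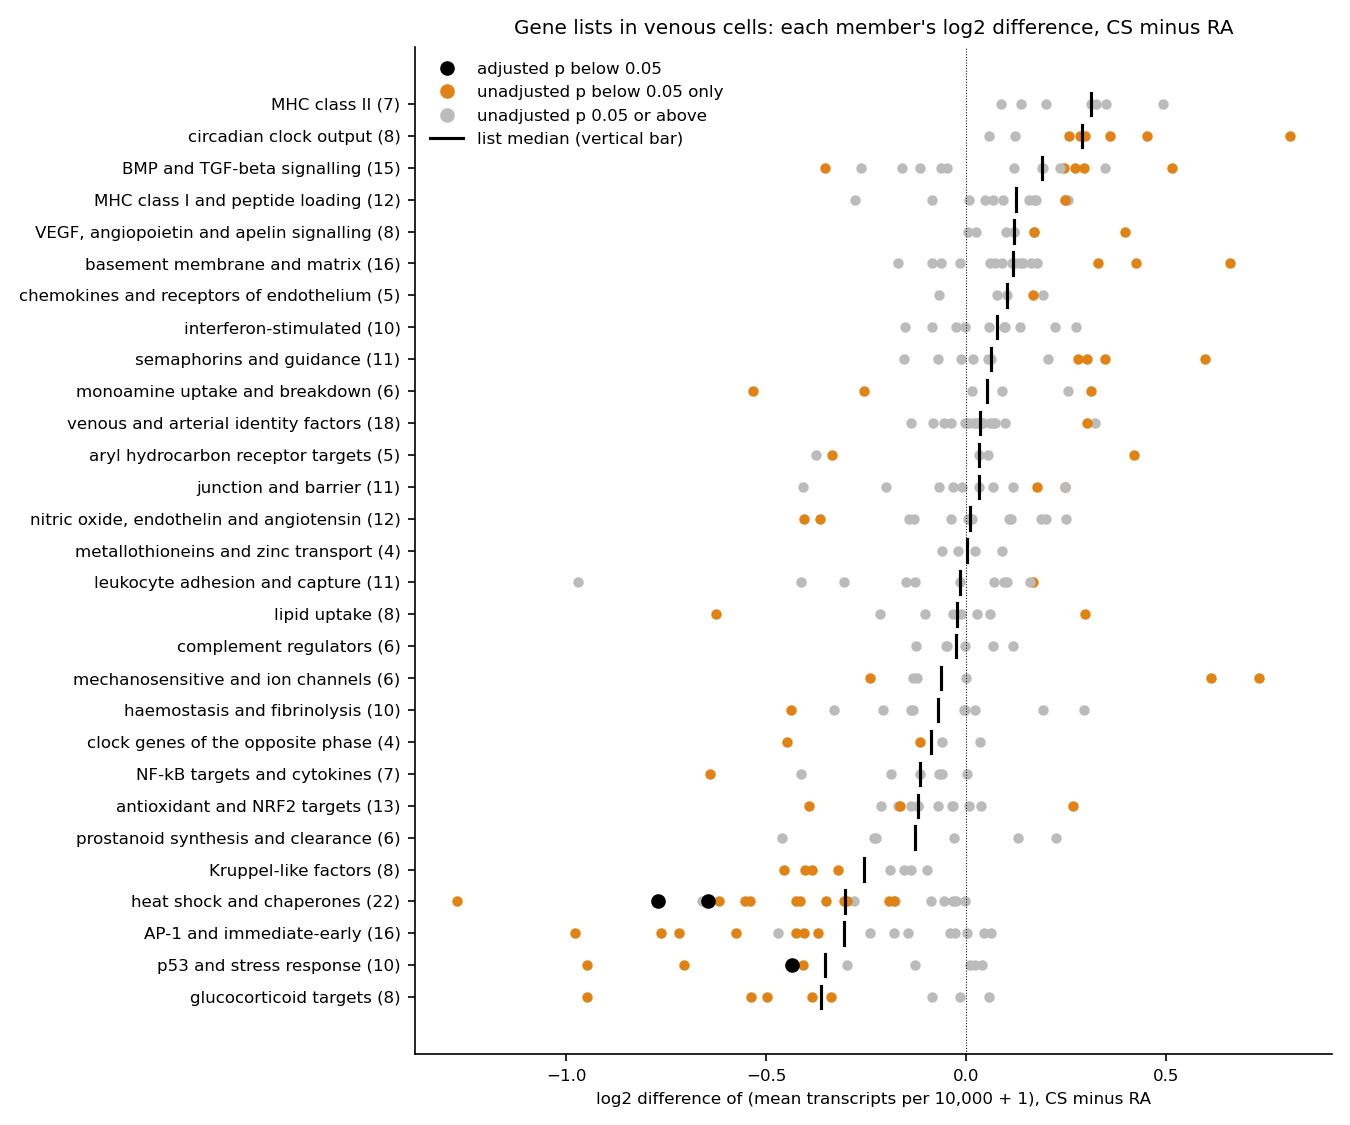
Log2 difference of log2(mean transcripts per 10,000 + 1) in venous cells, CS minus RA (horizontal axis), for the tested members of each gene list (vertical axis, number tested in brackets). Each point is 1 gene, black for called genes, orange for an unadjusted p below 0.05 only and grey for the rest, and the vertical bar is the list median. Every chaperone and Kruppel-like factor lay left of 0 and every clock output, MHC class II and VEGF gene right of it. The members called without the Xist term were Calr and Pdia6 among the chaperones and Ddit4 in the stress list.

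Whether the differences were particular to venous cells was tested against gCap cells, as a difference of differences within each mouse. Of 7856 genes, 2 were called (0.0255%), and 744 had an unadjusted p below 0.05. Ephx1, microsomal epoxide hydrolase, which detoxifies epoxides of combustion products, was at 1.29, 1.15, 1.11 and 1.09 in venous cells of CS mice and at 1.15, 0.901, 1.01 and 1.13 in those of RA mice, which overlapped. In gCap cells it was at 1.89, 1.5025, 1.51 and 1.49 in CS mice and at 0.893, 0.805, 0.737 and 0.942 in RA mice, which did not. The exposure effect was 0.08 in venous and 0.49 in gCap cells, a difference of -0.42 (SE 0.05, limma adjusted p = 0.0205). Arhgef7, a guanine nucleotide exchange factor, had an effect of 0.21 in venous and -0.36 in gCap cells, neither of which passed the test alone, and a difference of 0.57 (SE 0.08, limma adjusted p = 0.0426). In venous cells it was at 4.19, 6.88, 3.62 and 3.35 in CS mice and at 5.07, 3.20, 3.32 and 3.14 in RA mice. In gCap cells it was at 3.25, 5.30, 3.395 and 3.21 in CS mice and at 7.88, 4.745, 4.37 and 3.87 in RA mice. The groups overlapped in both types, and CS mouse 2 and RA mouse 1 were the highest of their groups in each. With a prior of 0.1 in place of 1, 0 genes were called.

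Against arterial cells, 0 of 8407 genes were called (0%), with 565 at an unadjusted p below 0.05 and a smallest adjusted p of 0.265 in limma. Selp and Tmtc2 gave differences of -1.01 and 0.76 between venous and arterial effects (limma adjusted p = 0.711 and 0.535).

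Side by side, the effects in the other endothelial types used the same mice and are given only as values. In each type's own comparison 53 of 7920 genes were called in arterial cells (0.669%), 672 of 6556 in gCap cells (10.3%), 135 of 6876 in aerocytes (1.96%) and 0 of 8281 in lymphatic cells (0%). The types held 730, 9988, 4240 and 512 cells in the same order. Calr had log2 differences of -0.77 in venous, -0.74 in arterial, -0.64 in gCap, -0.59 in aerocyte and -0.67 in lymphatic cells, and it was called in all but the last. Pdia6 had differences of -0.65, -0.84, -0.63, -0.51 and -0.72 in the same order. Nr3c2 had differences of 0.64, 0.70, 0.46, 0.43 and 0.46, and was likewise called in all but lymphatic cells.

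Tmtc2 had differences of 0.83 in venous, 0.07 in arterial, 0.43 in gCap and 0.79 in aerocyte cells. The difference between venous and gCap effects was 0.40 (limma adjusted p = 0.309). For Olfr1033 the effect was -0.80 in venous, -0.26 in arterial and -0.46 in lymphatic cells, and it was too rarely detected in the capillary types to be tested there. In gCap cells CS mice averaged 0.101 and RA mice 0.172, and the venous effect was lower than the arterial one by 0.55 on the log2 scale (limma adjusted p = 0.535).

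**Figure D5:**
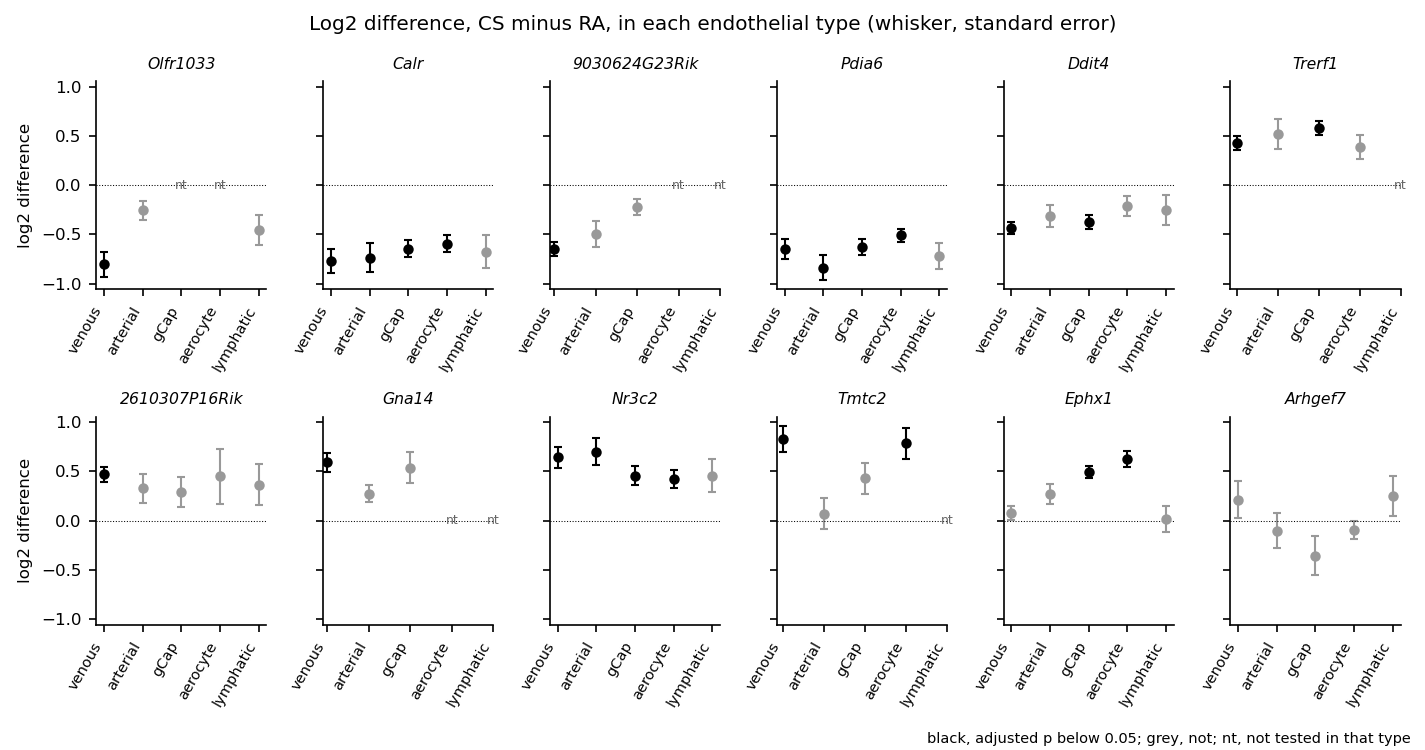
Log2 difference, CS minus RA, of the 10 called genes and of Ephx1 and Arhgef7 (vertical axes) in each endothelial type (horizontal axes). Points are fitted differences with their SE as whiskers, black where the adjusted p was below 0.05, grey where it was not, and nt marks a type in which the gene was not tested. Calr and Pdia6 lay below 0 in 5 of 5 types, while Ephx1 was near 0 in venous cells and above 0 in gCap cells and aerocytes.

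Genes higher and lower in CS venous cells were unlike in gene span, taken from GENCODE M21 on GRCm38. Over the genes tested the median span was 29.4 kb. It was 88.9 kb for the 765 genes higher in CS at an unadjusted p below 0.05, and 11.8 kb for the 411 genes lower in CS. Called genes spanned 175 to 426 kb when higher and 2.17 to 54.0 kb when lower. Spliced and unspliced transcripts were summed in the deposited counts, and mitochondrial transcripts were at 101 to 137 per 10,000 in CS and 85.4 to 128 in RA venous cells, with the nuclear transcript Malat1 at 211 to 228 and 202 to 310. Neat1, another nuclear transcript, was at 8.35 to 10.2 in CS and 11.98 to 16.8 in RA mice without overlap. The part of nuclear RNA in the differences by span was not tested.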

How the data were processed

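Venous endothelial cells of 8 mouse lungs, 4 CS and 4 RA, were measured by droplet RNA sequencing. The authors aligned reads with STAR (2.7.3a) to GRCm38.p6 and the reporters, summed spliced and unspliced molecules, took out free RNA by SoupX and annotated types. The expected counts they deposited are molecules after that removal, of which 1.28% are whole, so no count model was used. The mitochondrial percent per cell was deposited by the authors too. Their multiplets and the few cells labelled as cell cycle were left out. Here each cell was scaled to 10,000 transcripts and averaged per mouse, for at least 20 cells, and log2(mean + 1) entered limma (3.58.1, R 4.3.3; trend, Benjamini-Hochberg, threshold 0.05, genes in 10% of cells of either group). The fold on this scale understates changes of low genes. Shares were compared by exact permutation. Scripts were tested on simulated data. The study assigned littermates to the groups at random, and the sources used here do not say which mice shared a litter.

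Members and gene lists were chosen with earlier results of these data known. Named genes were up to 12 called genes per direction by log2 difference (where under 5 were called, the 5 of smallest p), the venous markers, called members of the lists, the 2 members of highest level in each list, and the 5 genes most correlated with Slc6a2 or Vwf over cell types. Other named genes were chosen after their values were seen. Alternatives changed the pseudocount, the filter, the covariate, the normalization, the cells, the test or the mice. Coordinates are from GENCODE M21, promoters from RefSeq. The mitochondrial limit in 1 alternative was 5%. Values of a few list members are not reported here.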

Additional observations from a re-analysis of the deposited data

Results flagged for a closer look

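In 230 groups of 4 mice examined, 11 held a mouse whose gap to the nearest of the others exceeded the critical value of Dixon's test as a share of its group's range. Chance alone gives about 1 in 20 such groups. RA mouse 1, the library with the fewest transcripts per venous cell, stood apart in 4 of them. It was lowest for Amigo2 (1.92 against 2.48 to 2.55, gap 0.887 of the range), Piezo2 (0.833 against 1.95 to 2.15, gap 0.851) and Sparc (0.570 against 0.913 to 0.971, gap 0.854), and highest for Hpgd (42.9 against 21.4 to 24.3, gap 0.864).

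CS mouse 1 stood apart in 4 of them as well. It was highest for Adrb1 (1.69 against 1.49 to 1.502, gap 0.963) and Id1 (4.08 against 3.55 to 3.58, gap 0.949), and lowest for Arntl (0.0597 against 0.373 to 0.424, gap 0.861) and Cdkn1a (2.76 against 5.25 to 5.45, gap 0.924). CS mouse 4 was highest for Bmp6 (7.32 against 5.03 to 5.21, gap 0.922). RA mouse 3 was highest for Ackr1 (0.338 against 0.215 to 0.233, gap 0.851). In the share of CD45-negative types, RA mouse 2 was lowest (3.71% against 5.40 to 5.73%, gap 0.834).

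The exposure effect differed between venous and gCap cells for Ephx1 (by -0.417 on the log2 scale) and Arhgef7 (by 0.569), each by limma on the difference within a mouse, as given above with the values of every mouse.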

How the results depend on the processing

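The main count of 10 called genes moved to 3 with a pseudocount of 0.1, 17 for genes found in 25% of cells, 0 with no filter (26540 genes tested), 2 with the lane and 1 with the labelled sex as a term, 3 with summed counts, 5 with quantile normalization and 6 with thinned cells (3947 tested). It was 33 with the Xist term, chosen after the data were seen, and 706 with the Wilcoxon test over cells, which treats the cells of a mouse as independent (536 higher and 170 lower). Leaving out 1 mouse gave 1 (without CS mouse 1, 4 or RA mouse 2, 3) to 7 (without RA mouse 1). Each labelled sex mixed libraries of high and of low Xist, as stated above. The causes of these moves were not tested. The 2 genes called against gCap cells became 6 with the lane term, 0 with a pseudocount of 0.1, and 0 (without CS mouse 2) to 3 (without CS mouse 1). Against arterial cells the count was 0 in every alternative.

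Leaving out 1 mouse gave differences of 0.461 to 1.495 percentage points in the share of CD45-negative types and of -0.678 to 2.05 in that of blood endothelial cells (-0.383 without RA mouse 2). Alternatives were run for 108 gene results, those of the named genes and of the genes called against gCap cells. Over all alternatives 20 of the 108 changed sign at least once, 0 of them called. The 10 called genes had groups that did not overlap, so leaving out 1 mouse could not turn them. Of the 20, 7 changed sign with a move of over 1 SE when a mouse was left out. The ranges of these 7 were -0.28 to 0.25 for Ackr3, -0.13 to 0.87 for Cd74, -0.17 to 0.28 for Eln, -0.34 to 0.00106 for Gpihbp1, -0.0195 to 0.53 for H2-Aa and -0.16 to 0.19 for Nr2f2, each turned without RA mouse 1, and -0.62 to 0.14 for Vcam1, turned without CS mouse 1. The lane term above pairs 1 CS with 1 RA mouse. No paired analysis was possible by replicate number because the labels give the mice no shared numbers. Genes under about 1 transcript per 10,000 rest on few molecules per mouse, and cell totals set the precision.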

Other observations

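Vcam1 was higher in the libraries of low Xist than in those of high Xist in venous cells of either group. It was at 3.68 and 9.42 in the CS libraries of high Xist and at 16.3 and 21.5 in those of low Xist, and at 9.94 and 10.95 against 18.6 and 16.3 in the RA libraries. Selp, given above, had the same order in both groups. Btg2 had the opposite order, at 7.59 and 6.06 against 4.66 and 4.33 in CS and at 14.0 and 10.8 against 7.02 and 8.17 in RA libraries. These genes were picked after their values were seen, and the order was not tested.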
